A study of Homo sapiens with 10 samples.

Results

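The ZIC genes encode zinc finger transcription factors, and 4 of them, ZIC1, ZIC2, ZIC4 and ZIC5, were followed here in human embryonic stem cells (ESCs) and in neuroectodermal cells (NECs). They were listed by name and found as 4 of the 31017 rows of the RNA-seq count table. Their starts lie in 3 of the 21833 baits, the promoter fragments from which promoter capture Hi-C (PCHi-C) contacts were called. ZIC1 (ENSG00000152977) spans chr3:147111209-147228080 on the plus strand and ZIC4 (ENSG00000174963) chr3:147103833-147124647 on the minus strand in GRCh37. ZIC5 (ENSG00000139800) spans chr13:100615275-100624163 on the minus strand and ZIC2 (ENSG00000043355) chr13:100634026-100639018 on the plus strand.

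Both cell types came from 1 line, the human ESC line H9. ESCs were grown in Pluripro medium and matrix. NECs were obtained by differentiating the same line with a protocol published earlier and were collected on day 7. No genetic change was named for either group, and the paper does not list the factors used in that protocol. Polyadenylated RNA was sequenced from 2 biological replicates per cell type, and PCHi-C was made from 2 biological replicates per cell type to ask how promoter contacts change with lineage commitment. The labels do not tie the replicates of one assay to those of the other. The ESC RNA libraries shared a sequencing lane and the NEC RNA libraries shared another, so effects of lane and of cell type cannot be told apart here.

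ZIC proteins share their zinc finger domain type with the GLI factors of the Hedgehog pathway and take part in neural induction, in the patterning of the dorsal neural tube and at the neural plate border, from which the neural crest forms. The genes lie in divergently transcribed pairs, ZIC1 with ZIC4 and ZIC2 with ZIC5. Loss of ZIC2 function is a cause of holoprosencephaly, a failure of the forebrain to divide, and deletions that include ZIC1 and ZIC4 have been linked to Dandy-Walker malformation of the cerebellum. ZIC2 is also known as an enhancer-binding factor of pluripotent cells.

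The starts of the paired genes are close enough to share promoter fragments, which decides what PCHi-C can resolve. The ZIC2 and ZIC5 starts in the count table are 9863 bp apart and lie in the same HindIII fragment, chr13:100615888-100636305, so their contacts cannot be separated and are given once, for the ZIC2/ZIC5 bait. On chromosome 3 the count table places the ZIC1 start in the fragment chr3:147107290-147112491 (called the ZIC1 bait) and the ZIC4 start in chr3:147122943-147130177 (the ZIC4 bait). The RefSeq start of ZIC1, base 147127152, lies 15943 bp from the count table start and inside the ZIC4 bait. The ZIC4 bait therefore holds a start of both genes, and both baits hold annotated transcript starts of both genes. All 73 baits and contacted fragments examined began and ended at a HindIII site of GRCh37.

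The sequence directly upstream of 3 of the starts is shown, and each of these starts lies in a ZIC bait, that of ZIC1 in the ZIC4 bait. The ZIC4 window, chr3:147124331-147124580, lies wholly within annotated exons of ZIC4 and is not shown. The windows hold the 250 bases before the RefSeq start nearest to the count table start, 5′ to 3′ on the gene's strand. They were taken from RefSeq (GRCh38.p14) and placed in GRCh37 by exact match at chr3:147126902-147127151 for ZIC1, chr13:100633788-100634037 for ZIC2 and chr13:100624164-100624413 for ZIC5, and none overlaps an annotated exon. Capitals mark the GC box GGGCGG and the CCAAT box, searched on both strands (CCGCCC and ATTGG on the other strand).
ZIC1: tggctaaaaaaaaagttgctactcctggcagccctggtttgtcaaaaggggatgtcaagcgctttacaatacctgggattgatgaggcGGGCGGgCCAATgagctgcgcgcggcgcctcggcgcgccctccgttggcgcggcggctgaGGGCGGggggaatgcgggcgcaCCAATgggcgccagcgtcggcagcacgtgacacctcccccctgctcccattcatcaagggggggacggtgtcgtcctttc
ZIC2: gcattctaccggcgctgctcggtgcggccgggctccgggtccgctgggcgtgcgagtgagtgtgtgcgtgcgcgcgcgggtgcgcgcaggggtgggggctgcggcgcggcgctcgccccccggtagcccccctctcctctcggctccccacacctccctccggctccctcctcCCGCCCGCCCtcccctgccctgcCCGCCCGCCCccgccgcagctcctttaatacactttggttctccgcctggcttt
ZIC5: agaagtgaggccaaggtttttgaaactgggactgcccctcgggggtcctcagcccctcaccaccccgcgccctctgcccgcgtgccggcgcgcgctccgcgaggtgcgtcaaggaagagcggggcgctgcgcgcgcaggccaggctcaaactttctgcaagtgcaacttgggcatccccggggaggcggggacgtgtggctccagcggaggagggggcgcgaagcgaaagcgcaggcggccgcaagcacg

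The 3 windows shown were GC-rich, with 64.4% G and C for ZIC1, 75.6% for ZIC2 and 70.4% for ZIC5, against a median of 58.0% over 35097 RefSeq windows of the same length. Their ratio of observed to expected CpG was 0.895, 0.895 and 0.91, against a median of 0.558. The ZIC4 window was not GC-rich, with 42.8% G and C and a CpG ratio of 0.792. The ZIC1 window held 2 GC boxes and 2 CCAAT boxes. The ZIC2 window held 4 GC boxes in overlapping pairs and no CCAAT box, and the ZIC5 window held neither. Of all windows, 42.6% held a GC box and 32.0% a CCAAT box. None of the 3 windows held the letters TATAAA, the GLI-type motif GGGTGGTC or the ZIC-type motif CAGCAGG on either strand, which were found in 10.7%, 0.849% and 8.49% of all windows.

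The labels were checked first against marker genes. Of 10 pluripotency genes, 9 fell in NECs and none rose, among them NANOG (log2 fold change −5.74, SE 0.37) and ZFP42 (−5.09, SE 0.39). Of 10 neuroectoderm genes 6 rose, among them the transcription factors SOX1 (5.57, SE 0.13), PAX6 (5.67, SE 0.33) and OTX1 (5.00, SE 0.42), and HESX1, an anterior neural and pluripotency-associated factor, fell by 1.78 (SE 0.42). Under the fold threshold were SOX11 (1.26, SE 0.09), SOX2 (0.21, SE 0.10) and OTX2, which was lower in NECs (−1.33, SE 0.23). The summed level of the pluripotency list was 6580 and 7070 CPM (counts per 1e6 counts of TMM-adjusted library size) in the ESC libraries and 1080 and 1670 in NEC replicates 1 and 2. Library totals ranged from 19234087 to 25356382 counts. These and all further calls required an adjusted p under 0.05 in edgeR's quasi-likelihood test over 17564 genes and an absolute log2 fold change above 1.5. By this rule 1997 genes (11.4%) were higher and 1700 (9.68%) were lower in NECs.

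ZIC1 and ZIC4 were nearly silent in ESCs and were expressed in NECs, whereas ZIC2 and ZIC5 were expressed in both cell types at levels that differed little. In the bulk RNA used here, a change in the share of cells that express a gene and a change in RNA per cell cannot be told apart. ZIC1 and ZIC4 passed the filter on low counts through their NEC libraries alone, so their being tested already required a difference. ZIC2 and ZIC5 passed it in both cell types.

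ZIC1, a factor of the dorsal neural tube and neural plate border, had 2 and 6 counts in the ESC libraries and 515 and 149 counts in NEC replicates 1 and 2. In CPM its level was 0.106 and 0.243 in ESCs and 24.1 and 6.04 in NECs. The groups did not overlap, and the lower NEC library was far above both ESC libraries, but the NEC libraries themselves differed 3.99-fold. The means were 0.174 ± 0.0966 CPM in ESCs and 15.1 ± 12.8 CPM in NECs (SD, n = 2). The pooled ratio of NECs to ESCs was 78.6 (exact 95% interval 39.7 to 183, counting error only). The fitted log2 fold change was 6.32 (SE 0.92) at an adjusted p of 0.00149 in edgeR, and it was 5.01 without NEC replicate 1 and 3.31 with DESeq2's shrunken fold changes.

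ZIC4, the divergent partner of ZIC1, had 3 and 2 counts in the ESC libraries against 204 and 27 in NEC replicates 1 and 2. These correspond to 0.159 and 0.0808 CPM in ESCs and 9.54 and 1.09 CPM in NECs. NEC replicate 1 was again the high library, 8.72-fold above NEC replicate 2. With means of 0.12 ± 0.0551 and 5.32 ± 5.97 CPM (SD, n = 2), the pooled ratio was 43.7 (exact 95% interval 18.5 to 136, counting error only). The log2 fold change was 5.45 (SE 1.29, edgeR adjusted p = 0.0105), a value that depends on the prior count because so few reads were counted in ESCs. It was 4.71 with a prior count of 2, 3.19 without NEC replicate 1 and 2.03 with DESeq2's shrunken fold changes. The call held in each of these.

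ZIC1 and ZIC4 overlap over 13439 bp on opposite strands, and reads were counted without regard to strand. Of their annotated exonic bases 176 are shared, which is 2.58% of the exonic bases of ZIC1 and 2.07% of those of ZIC4, so some reads could belong to either gene. With their counts summed to 1 feature, the log2 fold change was 6.07 (edgeR adjusted p = 0.00197). ZIC4-AS1, an antisense RNA whose 268 exonic bases lie within exons of ZIC4, had 0 and 0 counts in ESCs and 16 and 4 in NECs, and such reads cannot be told from those of ZIC4.

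ZIC2 was the most highly expressed of the 4 genes in every library. It had 3607 and 4525 counts in ESCs and 5312 and 5319 in NECs, which correspond to 191 and 183 CPM and to 248 and 215 CPM. The NEC libraries were both above the ESC libraries. The difference was small, with means of 187 ± 5.69 and 232 ± 23.3 CPM (SD, n = 2) and a fitted log2 difference of 0.31 (SE 0.10). Its adjusted p in edgeR was 0.0358, and 10738 of the 17564 genes tested had one under 0.05. The difference stayed under the fold change threshold. Without ESC replicate 1, ESC replicate 2 or NEC replicate 1 the adjusted p was 0.146, 0.218 and 0.0779.

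ZIC5, its divergent partner, had 1373 and 1545 counts in ESCs and 1239 and 1172 in NECs. Its levels were 72.7 and 62.5 CPM in ESCs and 57.9 and 47.5 CPM in NECs, so both NEC libraries were below both ESC libraries. How many of all genes have cell types without overlap, as ZIC2 and ZIC5 do, was not determined. The means were 67.6 ± 7.24 and 52.7 ± 7.4 CPM (SD, n = 2), and the fitted log2 difference was −0.36 (SE 0.13, edgeR adjusted p = 0.0521). Neither the adjusted p nor the fold passed the threshold. Over 8 other settings of the fit to all 4 libraries the adjusted p lay between 0.0124 and 0.103 and was under 0.05 in 3.

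**Figure D1:**
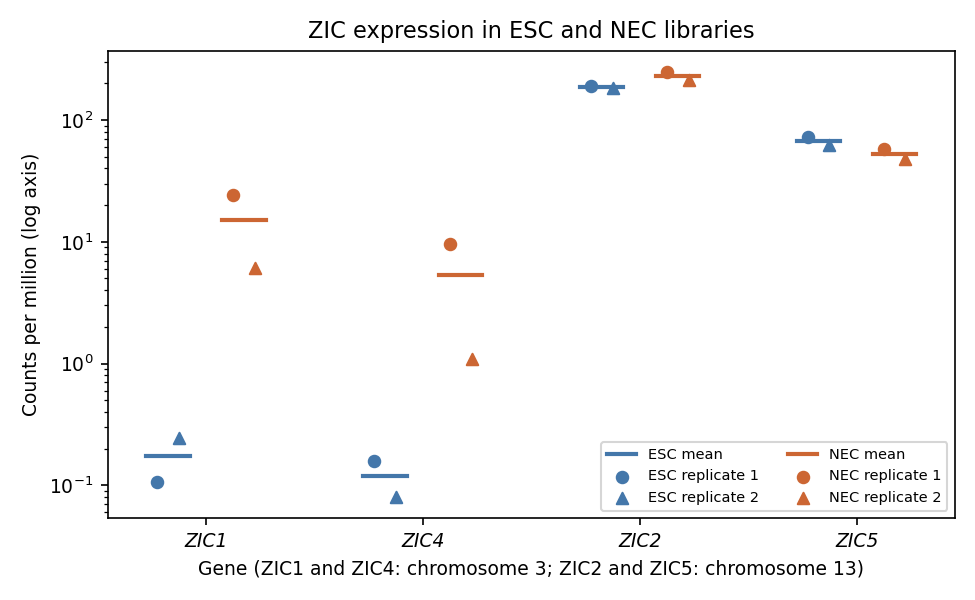
Expression of the 4 ZIC genes in CPM on a log axis. Points are single libraries (circles replicate 1, triangles replicate 2) and bars are means of 2 libraries in ESCs (blue) and NECs (orange). ZIC1 and ZIC4 lie below 1 CPM in both ESC libraries and have their highest value in NEC replicate 1, whereas ZIC2 and ZIC5 lie at similar levels in all 4 libraries.

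The balance within the chromosome 13 pair differed between the ESC and the NEC libraries. For each ZIC5 read there were 2.63 and 2.93 ZIC2 reads in the ESC libraries and 4.29 and 4.54 in the NEC libraries, a comparison in which the scaling of the libraries plays no part. The ratios of the cell types did not overlap (2.78 ± 0.212 against 4.42 ± 0.177, SD, n = 2). The exact two-sided permutation test gave p = 0.333, which is the smallest value that 2 libraries against 2 allow, so it could not decide on a difference. How many other gene pairs have ratios without overlap was not determined, and the ratios are given as a description.

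Levels were compared between genes as RPKM, the CPM divided by the annotated exon length in kilobases. The order in ESCs was ZIC2 at 58.0 and 55.6 RPKM, then ZIC5 at 16.2 and 13.9. ZIC1 (0.0155 and 0.0355) and ZIC4 (0.0186 and 0.00949) followed, and these do not differ beyond the spread of their libraries. In NECs the order was ZIC2 at 75.5 and 65.5 RPKM, ZIC5 at 12.9 and 10.6, ZIC1 at 3.53 and 0.884 and ZIC4 at 1.12 and 0.128, where the ranges of ZIC1 and ZIC4 overlap. Within a library ZIC1 exceeded ZIC4 in ESC replicate 2 and in both NEC replicates. ZIC2 supplied 78.2% and 80.0% of the summed RPKM of the 4 genes in the ESC libraries and 81.2% and 85.0% in the NEC libraries. ZIC5 supplied 21.8% and 20% in ESCs and 13.8% and 13.7% in NECs, and ZIC1 reached 3.79% in NEC replicate 1 and 1.15% in replicate 2.

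The unequal NEC libraries were followed further, since ZIC1 and ZIC4 were among few genes that were so much higher in NEC replicate 1. Of 17564 tested genes, 187 (1.06%) were more than 2-fold higher in the first NEC replicate than in the second (log2 ratio of CPM + 0.5 above 1). This log2 ratio was 1.91 for ZIC1 and 2.66 for ZIC4, against 0.2 for ZIC2 and 0.28 for ZIC5.

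Genes of the neural plate border, the strip between neural and surface ectoderm, were mostly higher in NECs. Of 10 listed genes 9 were tested, 7 rose and none fell, and over all genes tested 11.4% rose and 9.68% fell. Their median log2 fold change was 6.44 and that of all genes tested 0.01. However, PAX3, PAX7, MSX1, TFAP2A and TFAP2B had under 10 counts in both ESC libraries, and MSX2 had 8 and 14. Like ZIC1 and ZIC4, these genes were tested only because of their NEC libraries. The count and the median are therefore given as a description. PAX3, a paired-box factor of the border and dorsal neural tube, had 5 and 8 counts in ESCs and 1416 and 441 in NEC replicates 1 and 2, and rose by 7.11 on the log2 scale (SE 0.87, edgeR adjusted p = 0.000781). Its relative PAX7 had 0 and 1 counts in ESCs and 272 and 53 in NECs. The AP-2 factor TFAP2A had 1 and 0 counts in ESCs and 117 and 17 in NECs, and TFAP2B had 0 in both ESC libraries and 339 and 36 in NECs, at least 118-fold higher (floor of 3 counts over both ESC libraries). PAX3, PAX7, TFAP2A and TFAP2B were all higher in NEC replicate 1. DLX3 and PRDM1 were not called (log2 fold change 1.05 with SE 0.35 for DLX3 and −1.25 with SE 0.35 for PRDM1).

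Between the NEC replicates, 6 of the 10 border genes were more than 2-fold higher in replicate 1, as were 7 of 10 neural crest markers and 2 of 10 neuroectoderm markers, against 1.06% of all genes tested. PAX3, TFAP2A and TFAP2B are on both the border and the crest list and count in each. The neural crest factor SOX10 had 70 and 90 counts in ESCs, 393 in NEC replicate 1 and 17 in NEC replicate 2. FOXD3, which acts in the crest and in pluripotent cells, had 284 and 399 counts in ESCs and 186 and 9 in NECs. The crest list as a whole summed to 153 and 140 CPM in ESCs and to 282 and 155 CPM in NEC replicates 1 and 2. Of its 10 genes 6 were called higher and 1 lower in NECs, against 11.4% and 9.68% of all genes tested. PAX3, TFAP2A and TFAP2B, among those called higher, were tested only because of their NEC libraries, so this count is also a description. None of the crest genes was at 0 in every library. SNAI2 and NGFR, also crest markers, were nearly equal in the NEC replicates (24.5 and 19.6 CPM, and 78.3 and 78.9 CPM). GBX2, a posterior neural gene on the border list, went the other way, with 48.1 CPM in NEC replicate 1 and 113 in replicate 2. Every gene on the pluripotency list was also higher in NEC replicate 2, where 8602 of the 17564 genes tested were higher in replicate 1. In NEC replicates 1 and 2, POU5F1 had 31.0 and 111 CPM, NANOG 0.561 and 2.03, L1TD1 24.8 and 90.1, and LIN28A 729 and 941. The part of border, crest or pluripotent cells in the ZIC1 and ZIC4 values was not tested.

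**Figure D2:**
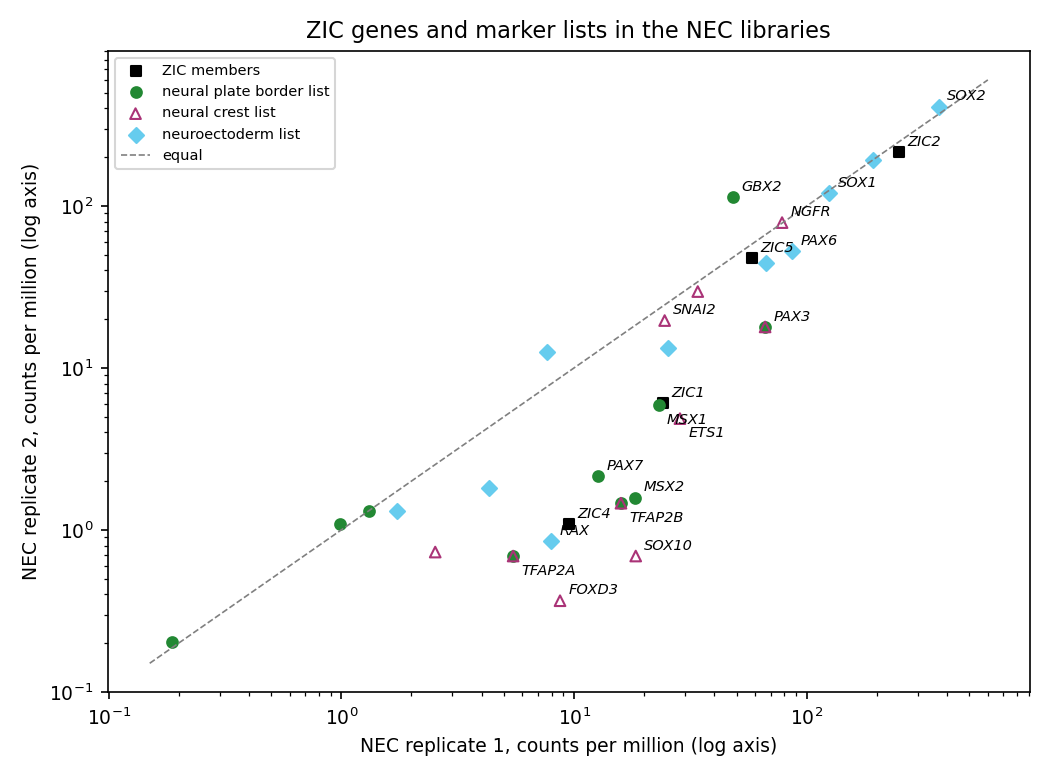
Level of each gene in NEC replicate 1 (x axis) and NEC replicate 2 (y axis), both in CPM on log axes. Squares are the 4 ZIC genes, circles the neural plate border list, open triangles the neural crest markers, diamonds the neuroectoderm markers, and the dashed line marks equal levels. ZIC1 and ZIC4 lie below the line beside MSX1, PAX7 and TFAP2A, whereas ZIC2, ZIC5, SOX1 and SOX2 lie close to it.

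The genes with the profiles most like each ZIC gene over the 4 libraries were ranked by the distance between log2(CPM + 0.5) values, each centred on its own mean. Closest to ZIC1 were MSX1 (distance 0.21), a homeobox factor of the border with 3 and 4 counts in ESCs and 494 and 145 in NECs, RSPO3 (0.31), a secreted enhancer of Wnt signalling, and WNT7B (0.4), a Wnt ligand. Closest to ZIC4 were SLIT3 (0.39), a secreted guidance factor, WNT1 (0.42), a Wnt ligand of the dorsal midline with 0 and 0 counts in ESCs and 171 and 32 in NECs, and TFAP2A (0.42). The nearest to ZIC2 were AC092614.2 (0.01), ZNF383 (0.02) and DNAJC18 (0.02). For ZIC5 they were AC069513.4 (0.02), PELI1 (0.03) and MAPKAPK3 (0.04). With 4 libraries of 2 cell types, and with nearly flat profiles for ZIC2 and ZIC5, many genes lie close to any profile, and these distances are a description.

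A further list held genes related to ZIC proteins by their zinc fingers or acting in the Hedgehog pathway. Of 14 listed genes 13 were tested, 4 rose, none fell and 9 were not called, where 11.4% of all genes tested rose and 9.68% fell. Their median log2 fold change was 0.78. BOC, a Hedgehog co-receptor, had 97 and 103 counts in ESCs and 7323 and 4942 in NECs, which gave a log2 fold change of 5.88 (SE 0.31) and an adjusted p of 4.3e-05 in edgeR. GLIS3 rose by 2.98 (SE 0.40), GLI3, a transcriptional effector that can repress Hedgehog targets, by 2.34 (SE 0.17), and PTCH1, the Hedgehog receptor, by 1.74 (SE 0.11). GLIS3 was tested only because of its NEC libraries. The ligand SHH itself had 7 and 26 counts in ESCs and 19 and 6 in NECs, and GLI1 had a log2 fold change of −1.08 (SE 0.18), under the fold threshold.

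Other genes in which mutation causes holoprosencephaly were listed beside ZIC2. Of 13 listed genes 6 rose, 4 fell and 3 were not called (median log2 fold change 0.23), against 11.4% higher and 9.68% lower over all genes tested. NODAL, a TGF-beta family ligand, fell from 1300 and 3995 counts to 13 and 8 (log2 fold change −7.96, SE 0.60), and its co-receptor TDGF1 from 10287 and 15913 to 39 and 274 (−6.49, SE 0.66). The Notch ligand DLL1 rose by 6.27 (SE 0.17) and the Hedgehog co-receptor GAS1 by 4.83 (SE 0.31). Beside these, the log2 fold change of ZIC2 was 0.31. NODAL was tested only because of its ESC libraries, and SIX3, another gene that rose, only because of its NEC libraries.

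The other genes near the ZIC genes were described next. Within 1 Mb of the ZIC1 and ZIC4 starts the count table lists 14 other genes, of which 3 passed the filter. All 3 were called, 1 higher and 2 lower, against 21.0% of all genes tested. RP11-71N10.1, a long non-coding RNA 533 kb away, rose from 3 and 10 counts to 55 and 48, by 2.92 on the log2 scale (SE 0.46, adjusted p = 0.00203 in edgeR), at similar levels in the NEC replicates. PLSCR1, a phospholipid scramblase gene 849 kb away, fell from 807 and 1001 to 241 and 320 counts (−1.78, SE 0.12). RP11-501O2.5, a non-coding RNA 874 kb away, fell from 14 and 12 counts to 0 and 0, at least 9.15-fold lower (floor of 3 counts over both NEC libraries). RP11-71N10.1 passed the filter only because of its NEC libraries and RP11-501O2.5 only because of its ESC libraries. Their being tested already required a difference, so the count of calls is given as a description. The 11 untested genes had at most 16 counts in any library, and 5 of them had none.

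Within 1 Mb of the ZIC2 and ZIC5 starts, 11 of 23 other genes were tested, and 1 of these 11 was called, against 21.0% of all genes tested. This gene, AL139035.1, lies 475 kb away, with 42 and 52 counts in ESCs and 5 and 10 in NECs. It passed the filter only because of its ESC libraries. The fitted change of AL139035.1 was −2.72 on the log2 scale (SE 0.38), at an adjusted p of 0.00129 in edgeR. The log2 fold changes of the other 10 ranged from −1.36 to 1.04. They include PCCA, a mitochondrial carboxylase subunit gene (−0.33, SE 0.11), and CLYBL, a mitochondrial lyase gene (0.13, SE 0.27), on either side of the ZIC pair. TMTC4 had the highest of these values, with 554 and 649 counts in ESCs and 1341 and 1280 in NECs.

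**Figure D3:**
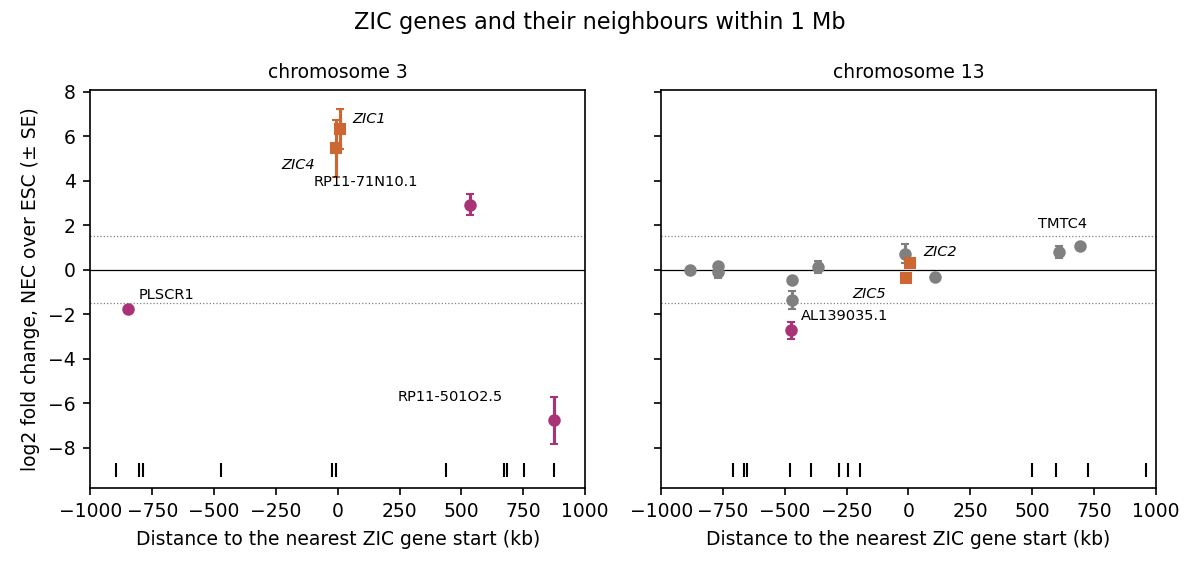
Log2 fold change (NEC over ESC, bars are SE) of the ZIC genes (orange squares) and of the tested genes within 1 Mb (circles, purple where called) against the distance to the nearest ZIC start in kb. Dotted lines mark the fold threshold and ticks at the bottom mark untested genes. ZIC1 and ZIC4 stand above all their tested neighbours, and ZIC2 and ZIC5 lie near 0 with the genes around them. The value of RP11-501O2.5, which had no count in NECs, depends on the prior count.

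PCHi-C was then used to ask which fragments the ZIC baits contacted. The deposited lists give a CHiCAGO score, which is higher the less probable the observed reads are under the expected background, for each pair of a bait and another fragment at a score of at least 12. The other fragment is called a promoter-interacting region (PIR), and the merged lists combine both replicates of a cell type. Scores come without read numbers, so the depth behind them is unknown, and no test was made between 2 replicates and 2. A pair missing from a list scored below 12, which does not show that the contact was absent.

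The ZIC4 bait had 5 PIRs in the merged ESC list and 9 in the merged NEC list. The ESC replicates each gave 4 PIRs and the NEC replicates each gave 10, without overlap of the cell types. Of 21768 baits with a call in a replicate list, 13.2% had more PIRs in both NEC replicates than in either ESC replicate. The ZIC1 bait had 6 PIRs in ESCs and 11 in NECs, but its ESC replicates gave 3 and 6 and its NEC replicates 4 and 13, which overlap. The ZIC2/ZIC5 bait had 9 PIRs in each merged list, and its replicate lists held 9 and 8 in ESCs against 10 and 9 in NECs. Baits with a call had a median of 3 PIRs in both merged lists. At a score of at least 15, the numbers in ESCs and NECs were 3 and 4 for the ZIC4 bait, 2 and 2 for the ZIC1 bait and 2 and 3 for the ZIC2/ZIC5 bait.

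The chromosome 3 baits contacted a distal region downstream of ZIC1. There the strongest contact of the ZIC1 and ZIC4 baits had higher merged scores in NECs. The region includes the long non-coding RNA gene LINC02032 (RP11-639B1.1 in the count table), which had 0 and 0 counts in ESCs and 1 and 0 in NECs. Its fragment chr3:147796068-147801751, which holds exons of LINC02032 and is itself a bait, was contacted by the ZIC1 bait at a distance of 689 kb. The scores of that pair were 14.14 and 18.11 in ESC replicates 1 and 2 and 22.66 and 19.10 in NEC replicates 1 and 2, and the merged scores were 17.11 and 25.75. The pair was called in all 4 replicates, with both NEC scores above both ESC scores.

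From the ZIC4 bait, the same fragment lay at 672 kb and scored 15.53 in the merged ESC list and 27.27 in the merged NEC list. It was called in ESC replicate 1 (18.74) and in both NEC replicates (20.3 and 32.53), and not in ESC replicate 2. A further bait at the locus, chr3:147102054-147104935, which holds the start of ZIC4-AS1, contacted the fragment in both NEC replicates (19.67 and 12.89) and in neither ESC replicate. The 3 baits are neighbours on one stretch of the chromosome, so their contacts are not independent observations.

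Fragments around this one were called in either cell type. The ZIC1 bait contacted chr3:147791224-147795619, which also holds LINC02032 exons, in both NEC replicates (13.74 and 14.11) and in neither ESC replicate. The ZIC4 bait contacted it in NEC replicate 2 alone (22.11), and it contacted chr3:147801752-147805001, in an intron of LINC02032, in NEC replicate 1 alone (20.14). Farther out, some fragments were called in ESCs and not in NECs, among them those at 739 kb (ESC replicate 1, 12.84) and 742 kb (ESC replicate 2, 14.47) from the ZIC4 bait and at 766 kb from the ZIC1 bait (merged ESC list alone, 12.03). The ZIC4-AS1 bait had such calls at 741 and 762 kb (12.34 and 15.27, ESC replicate 1). Nearer, the fragment at 640 kb from the ZIC1 bait was in the merged ESC list (12.29) and not the merged NEC list, and its replicate call was in NEC replicate 2 (13.66). Other fragments were called in NEC replicate 2 and not in ESCs. From the ZIC4 bait these included fragments at 729 kb (13.36), 824 kb (15.33) and 948 kb (12.41). From the ZIC1 bait they included fragments at 874 kb (12.74), 934 kb (12.99) and 979 kb (13.3), and from the ZIC4-AS1 bait one at 813 kb (12.26). The ZIC4 bait also contacted the intergenic fragment chr3:147644352-147647763 at 519 kb in both NEC replicates (12.92 and 13.33) and in neither ESC replicate. Of the pairs in any replicate list, 1 of 20 of the ZIC4 bait and 1 of 18 of the ZIC1 bait were called in both NEC replicates and neither ESC replicate, against 2.46% of all pairs called in a replicate list. None of either bait was called in both ESC replicates and neither NEC replicate, against 2.56% of all pairs.

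Close to the genes, the highest merged scores of the ZIC4 bait in both cell types were with chr3:147083539-147089420, 40.1 kb away. This fragment is a bait that holds the start of the non-coding RNA RP11-649A16.1, for which the 4 libraries hold 1 count in all. Its scores with the ZIC4 bait were 14.22 and 15.95 in ESCs against 18.83 and 23.98 in NECs, again with both NEC scores above both ESC scores, and 21.54 and 32.20 in the merged lists. From the other baits of the locus the same fragment had the lower merged score in NECs. The ZIC1 bait gave 15.61 in ESCs and 14.34 in NECs, with calls in ESC replicate 2 (14.5) and NEC replicate 2 (12.87). The ZIC4-AS1 bait gave 13.66 and 12.81, with a replicate call in ESC replicate 2 alone (12.48). The ZIC4 and ZIC1 baits, 16.7 kb apart, were called as a pair from the ZIC4 side with merged scores of 16.61 in ESCs and 22.13 in NECs. Over single replicates that pair was called in ESC replicate 2 (15.68) and both NEC replicates (13.54 and 15.94), where the ESC value lies between the NEC values. From the ZIC1 side the merged scores were lower, 12.65 in ESCs and 15.05 in NECs. The replicate calls on that side were ESC replicate 2 (12.83) and NEC replicate 2 (12.28) alone.

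The baits of ZIC1 and ZIC4 shared part of their PIRs. In ESCs 2 fragments were PIRs of both baits, out of the 6 of the ZIC1 bait (33.3%) and the 5 of the ZIC4 bait (40%). In NECs 5 were shared, 45.5% of 11 and 55.6% of 9. With NEC replicate 1 alone 1 fragment was shared and with NEC replicate 2 alone 4, and the 5 of the merged lists include fragments that neither replicate alone gave for both baits.

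Between the cell types, 3 PIRs of the ZIC1 bait were shared, which is 50.0% of its ESC and 27.3% of its NEC PIRs. The ZIC4 bait also kept 3, 60.0% and 33.3%. With PIRs within 10 kb of each other counted as shared, 9 of 11 NEC PIRs of the ZIC1 bait and 6 of 9 of the ZIC4 bait had an ESC counterpart.

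**Figure D4:**
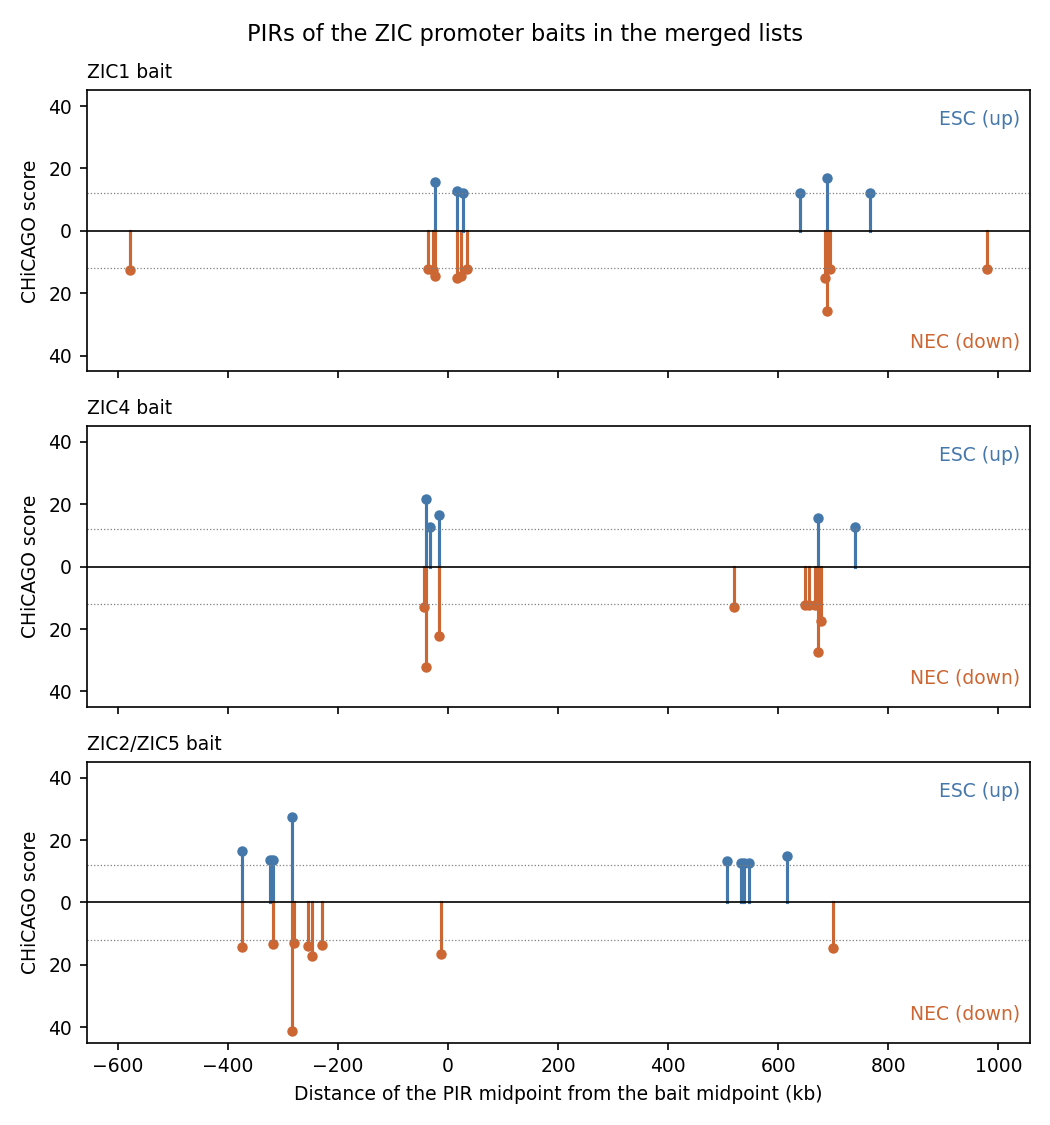
CHiCAGO scores (y axis) of the PIRs of each ZIC bait in the merged lists against the distance between the midpoints of PIR and bait in kb (x axis), with ESC scores drawn upward and NEC scores downward. The dotted lines mark the score of 12 at which the lists start. The chromosome 3 baits reach the same distal region near 672 kb (ZIC4 bait) and 689 kb (ZIC1 bait) in both cell types, with the higher scores in NECs, and the ZIC2/ZIC5 bait has its highest score at 284 kb in both.

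On chromosome 13 the expression of the pair differed little, yet the strongest contact of the ZIC2/ZIC5 bait also scored higher in NECs. It joined the bait to chr13:100341548-100343469, 284 kb away within CLYBL, a bait that holds the start and an exon of the antisense RNA CLYBL-AS2. Scores were 24.28 and 17.75 in ESC replicates 1 and 2 and 36.99 and 32.14 in NEC replicates 1 and 2. Both NEC scores were above both ESC scores, with 27.27 and 41.16 in the merged lists. CLYBL-AS2 had 0 and 0 counts in ESCs and 1 and 3 in NECs. The 250 bases before the RefSeq start of CLYBL-AS2, chr13:100343226-100343475 on the minus strand, are shown because they lie at the HindIII end of the contacted fragment, with the CCAAT box (ATTGG) in capitals.
CLYBL-AS2: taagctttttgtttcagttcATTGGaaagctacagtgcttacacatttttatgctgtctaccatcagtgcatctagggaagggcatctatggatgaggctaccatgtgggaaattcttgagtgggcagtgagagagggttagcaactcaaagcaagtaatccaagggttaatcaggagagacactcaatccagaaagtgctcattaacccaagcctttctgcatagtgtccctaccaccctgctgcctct

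This window had 45.2% G and C and no GC box, unlike the windows of ZIC1 and ZIC2, and it held 1 match to CAGCAGG.

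A second contact of the ZIC2/ZIC5 bait in all 4 replicates did not share the NEC increase. It joined the bait to the fragment with the CLYBL start, chr13:100245710-100259434 at 374 kb, with 15.74 and 14.09 in ESCs and 14.15 and 12.01 in NECs. The ranges of the cell types overlap. CLYBL itself had 214 and 198 counts in ESCs and 273 and 207 in NECs.

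The ZIC baits had 4 pairs called in all 4 replicates, and 3 of these had both NEC scores above both ESC scores. Over the 7822 pairs of all baits called in all 4 replicates, which are 2.85% of the pairs called in any replicate list, 20.9% did so. The exception was the pair with the CLYBL start.

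**Figure D5:**
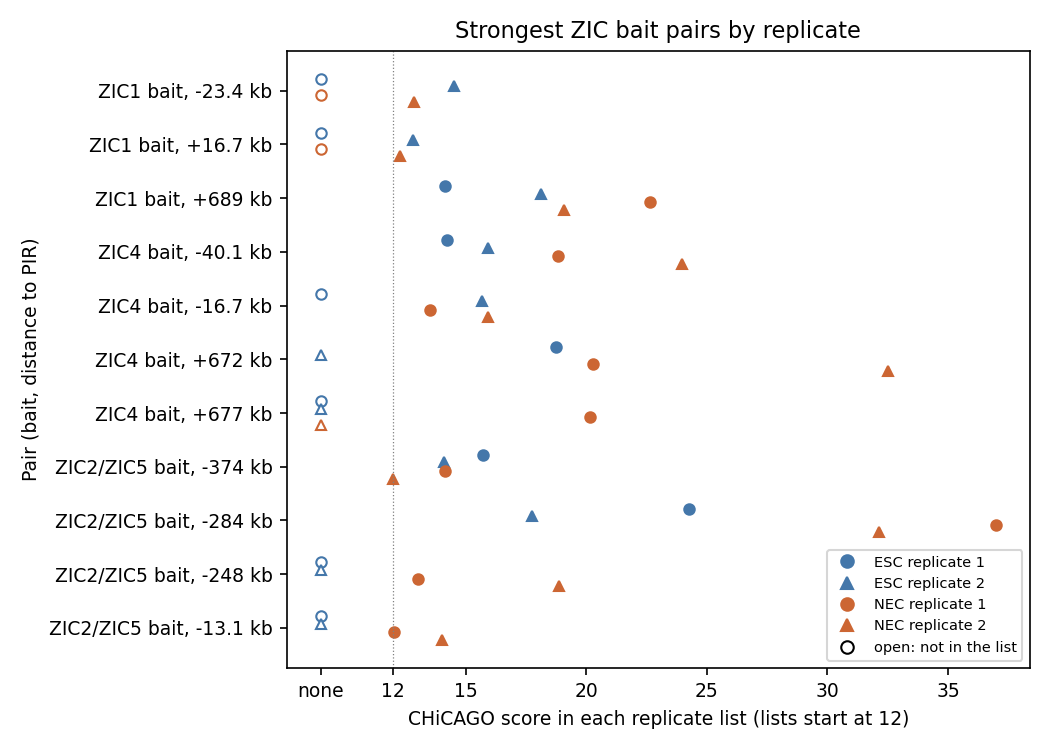
CHiCAGO scores in single replicates (x axis) for the pairs of ZIC baits with a merged score of at least 15, one row per pair with the distance from the bait. Blue marks ESC and orange NEC replicates, circles replicate 1 and triangles replicate 2, and open symbols mark lists without the pair. NEC scores exceed ESC scores at 689 kb from the ZIC1 bait, at 40.1 kb from the ZIC4 bait and at 284 kb from the ZIC2/ZIC5 bait, and overlap at 374 kb.

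Other contacts of the ZIC2/ZIC5 bait were called in one cell type. In both NEC replicates and neither ESC replicate, 3 of its 23 pairs were called (2.46% over the pairs of all baits), 2 of them neighbouring fragments within introns of CLYBL at 254 and 248 kb. The latter, chr13:100374335-100382678, scored 13.03 and 18.87, and holds the start of CLYBL-AS1, which had no count in any library. The remaining one was chr13:100610867-100615124, the intergenic fragment 13.1 kb from the bait midpoint, with 12.03 and 14.03.

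In both ESC replicates and neither NEC replicate, 2 of the 23 pairs were called (2.56% over the pairs of all baits). One was an intronic fragment of CLYBL at 323 kb (13.13 and 12.06). The other was chr13:101241374-101243366 at 616 kb, the bait that holds the start of GGACT (A2LD1 in the count table), with scores of 12.93 and 16.91. GGACT, a gamma-glutamylamine cyclotransferase gene, had 25 and 42 counts in ESCs and 59 and 62 in NECs. Its log2 fold change of 0.79 (SE 0.29), with an adjusted p of 0.0498 in edgeR, was under the fold threshold. Beyond it, the bait with the TMTC4 start at 699 kb was called in the merged NEC list (14.67) and in NEC replicate 2 alone (18.33). The start of PCCA-AS1, at 506 kb, was contacted in the merged ESC list (13.32) and ESC replicate 1 alone, and PCCA-AS1 had 1 count in all.

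The ZIC2/ZIC5 bait shared 3 of 9 PIRs between the cell types, 33.3% of each list, and 4 of 9 when PIRs within 10 kb were counted. On the side of PCCA, 5 of its merged ESC PIRs lay 506 to 616 kb away, and 4 of the 5 were called in a single ESC replicate. None of these fragments was in a NEC list, but NEC replicate 1 called other fragments of the same span, at 540 kb (13.34) and 582 kb (12.03). All merged NEC PIRs other than the fragment with TMTC4 lay on the side of CLYBL.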

How the data were processed

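RNA-seq reads of 2 ESC and 2 NEC libraries were trimmed by the authors, mapped to GRCh37 and counted per Ensembl gene in SeqMonk without regard to strand, and the deposited values are raw counts. The submitters' processing notes name TopHat2 2.0.8b and Bowtie 1.0.0. For PCHi-C the authors mapped reads with HiCUP, removed duplicates and called interactions with CHiCAGO, and the deposited lists hold a score per pair of HindIII fragments. ESC replicate 2 combined technical replicates. Hi-C was not analysed here.

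Counts were filtered with filterByExpr (minimum count 10), TMM-normalised and tested with edgeR 4.0.16 in R 4.3.3 (quasi-likelihood test, Benjamini-Hochberg adjustment, prior count 0.125). For a gene that passes this filter through a single cell type, being tested already required a difference. Counts of called genes in the lists are therefore a description. An SE is the log2 fold change divided by the square root of F. Genes were called at an adjusted p under 0.05 where the log2 fold change exceeded 1.5 in either direction. DESeq2 1.42.0 was an alternative, as used by the authors. P-values measure the spread between 2 biological replicates of 1 line. Scripts were tested on simulated data.

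Exon lengths and PIR annotation came from GENCODE v44lift37, whereas the counts used an older Ensembl set, so RPKM is approximate. PIRs were matched by exact fragment in Python 3.11.15 with pandas 2.3.3, and intervals were computed with SciPy 1.17.1. Named genes were the members, their called neighbours within 1 Mb, genes that start in a contacted bait, the 3 genes nearest in profile to each member and up to 4 called genes per list by absolute log2 fold change. Genes named beyond this rule were chosen after their values were seen. They are SHH, GLI1, SOX10, FOXD3, NGFR, GBX2, HESX1, DLX3, PRDM1, MSX2, SIX3, T, PCCA and ZIC4-AS1, and the marker genes given as examples. The members and lists were chosen with earlier results of these data known. Alternatives were other normalizations, filters, tests, a replicate block, leaving out each library, a score of at least 15, single-replicate lists and other rules for matching fragments.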

Additional observations from a re-analysis of the deposited data

How the results depend on the processing

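With the fold threshold in place, ZIC1 and ZIC4 were called under each of the alternatives tried, and ZIC2 and ZIC5 were called under none. The fits without 1 library treat a lone sample as varying like the other group. They gave log2 fold changes of 5.01 to 7.06 for ZIC1, 3.19 to 6.3 for ZIC4, 0.21 to 0.41 for ZIC2 and −0.5 to −0.22 for ZIC5. ZIC5 turned to 0.16 (edgeR adjusted p = 0.239) when its counts were summed with those of ZIC2. All called genes numbered 3697, 10738 without the fold threshold and 3294 to 4105 with a library left out. Without the fold threshold the Hedgehog list had 9 called genes in place of 4 and the chromosome 13 neighbours 6 in place of 1. Without a filter on low counts the chromosome 3 neighbours had 5 in place of 3. The mesendoderm list had 5 to 9 called with a library left out (5 without ESC replicate 2).

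The replicate numbers were not shown to pair the RNA libraries: over 17564 genes the deviations of same-numbered libraries from their group means correlated at r = 0.074. With the replicate block 3698 genes were called, and the log2 fold changes were 6.1 for ZIC1, 5.22 for ZIC4, 0.31 for ZIC2 and −0.36 for ZIC5. The block changed no call of a member.

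PIR numbers depended on the score threshold. At a score of at least 15 the ESC and NEC numbers were 2 and 2 for the ZIC1 bait, 3 and 4 for the ZIC4 bait and 2 and 3 for the ZIC2/ZIC5 bait, and 1, 3 and 1 PIRs were shared between the cell types, with 1 NEC PIR shared by the ZIC1 and ZIC4 baits. Without calls between baits the numbers were 3 and 8 for the ZIC1 bait, 2 and 6 for the ZIC4 bait and 5 and 5 for the ZIC2/ZIC5 bait. With every bait that holds a transcript start, ZIC1 and ZIC4 each had 9 in ESCs and 15 in NECs. With PIRs within 10 kb counted as shared, 9 NEC PIRs of the ZIC1 bait and 6 of the ZIC4 bait had an ESC counterpart, and 4 ESC PIRs of the ZIC4 bait lay by one of the ZIC1 bait. Single-replicate lists gave the ZIC1 bait 3 to 6 PIRs in ESCs and 4 to 13 in NECs, and 1 in ESCs and 1 to 4 in NECs shared by the ZIC1 and ZIC4 baits. The cause of these changes was not tested. The lists hold no read numbers, so depth limits every PCHi-C value to an unknown extent.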

Other observations

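Other cell types were given by lists that no comparison above used. Of 10 mesendoderm genes 9 were tested, 8 fell and none rose, against 9.68% lower and 11.4% higher over all genes tested. Their median log2 fold change was −2.51. Among those that fell were EOMES (log2 fold change −6.20, SE 0.68), MIXL1 (−5.77, SE 0.55) and CER1 (−5.62, SE 0.56), all markers of early mesoderm and endoderm. The summed level of the mesendoderm list was 92.6 and 221 CPM in ESC replicates 1 and 2 and 8.37 and 8.47 CPM in the NEC replicates. Of 10 neuronal genes 7 were tested, 5 rose and none fell, against the same shares of all genes tested. Among those that rose were the RNA-binding protein genes ELAVL3 (5.22, SE 0.44) and ELAVL4 (4.99, SE 0.65), while TUBB3, a neuronal tubulin gene, had a log2 fold change of 0.01 (SE 0.09). NEUROD1 and NEUROG2, factors of differentiating neurons, had at most 12 counts in any library. Of the 10 genes on each list none was at 0 in every library. EOMES, MIXL1, SOX17 and T passed the filter on low counts only because of their ESC libraries. ELAVL3, ELAVL4 and POU4F1 passed it only because of their NEC libraries. Being tested therefore already required a difference for these genes, and the counts of both lists are given as a description.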
